A study of Mus musculus with 9 samples.

Results

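The 7 genes described here carry or feed MHC class I antigen presentation, or are induced by interferon: H2-K1, H2-D1, B2m, Psmb8, Tap1, Ifitm2 and Ifitm3. They were chosen by name, with earlier results of these data known, and all 7 were found among the 3958 genes of the count table. Their levels were compared across adipose tissue libraries of male C57BL/6J mice at day 21, made from total RNA. The series design lists a normal diet, a high-fat diet, and a high-fat diet with electroacupuncture, a treatment that passes current through acupuncture needles. The group EA (libraries 5, 7 and 8) has the treatment label EA, and the design pairs EA only with the high-fat diet. The groups MPX (libraries 2, 5 and 7) and CPX (libraries 4, 6 and 8) carry no treatment label, and since no label ties either prefix to a diet, no difference below is read as a diet effect. The sources used here give neither the age of the mice nor the fat depot. They do not say whether each library came from its own animal, so a p-value measures only how far libraries spread, which may be technical.

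MHC class I molecules display peptides from inside the cell to CD8 T cells. Each is a polymorphic heavy chain, H2-K or H2-D in this strain, bound to the invariant light chain beta-2 microglobulin, and it is loaded in the endoplasmic reticulum with peptides that the proteasome makes and the TAP transporter pumps in. Interferons raise the whole pathway, together with antiviral genes such as the IFITM membrane proteins, which hinder viruses at the point of membrane fusion. Nearly all nucleated cells carry class I, but leukocytes and endothelial cells carry more of it than most, so bulk fat tissue mixes several sources.

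The listed counts ran from 12115183 to 14208853 per library, and the table holds only abundant genes, down to 8471 counts over the 9 libraries. CPM here is a gene's count on the usual CPM scale, relative to the listed total of its library after TMM scaling. All 16 adipocyte marker genes were listed and summed to 46679 to 71911 CPM in EA, 73573 to 80097 CPM in MPX and 12065 to 132970 CPM in CPX. Although the labels mention retinas where they describe RNA extraction, no retina marker looked for was among the listed genes. The low CPX value of the adipocyte sum was library 6, which also had the highest sum of 14 general leukocyte genes, 11601 CPM, where CPX 4 had 368 and CPX 8 had 905 CPM. That sum was 2044 to 4994 CPM in EA and 553 to 1258 CPM in MPX. CPX 4 had a TMM factor of 0.753, against 0.981 to 1.10 in the other libraries, and 11.8% of its listed counts were mitochondrially encoded, against 3.34% to 5.93% elsewhere. Member differences that change by more than 1.5 times without CPX 4 or CPX 6 are given with and without them.

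H2-K1 and H2-D1 encode the heavy chains. Both lie on chromosome 17 of mm10 and are annotated as protein coding: H2-K1 from 33996017 to 34000333 on the minus strand (ENSMUSG00000061232) and H2-D1 from 35262730 to 35267499 on the plus strand (ENSMUSG00000073411). Sequence from before their RefSeq starts is shown because those regions are largely alike. The levels of the genes had a Pearson's r of 0.590 over all 9 libraries, and 0.790 without CPX 6. The RefSeq start of H2-D1 lies inside the gene span given above, so only 30 bases around its match are printed, since GENCODE annotates a longer transcript there. In the RefSeq promoter windows (GRCm38.p6, which is mm10), the stretches run 5′ to 3′, and capitals mark a kappa B match, the site type bound by NF-kappa B factors.
H2-K1, chr17:34000348-34000597, minus strand: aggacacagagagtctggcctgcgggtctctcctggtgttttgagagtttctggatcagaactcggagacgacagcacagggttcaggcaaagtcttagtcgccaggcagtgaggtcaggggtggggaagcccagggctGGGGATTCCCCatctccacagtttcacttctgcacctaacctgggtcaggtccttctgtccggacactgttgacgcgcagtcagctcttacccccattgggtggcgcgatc
H2-D1, chr17:35262914-35262943, plus strand: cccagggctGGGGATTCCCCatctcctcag
The whole windows of 300 bases were identical at 211 of 240 aligned positions (87.9%). H2-K1 has another RefSeq start a few bases further on, whose window holds the same match. The motif searched on both strands, GGGA and TNNCC with any base between them, matched once on each strand there. The matches overlap, and 4.16% of 32851 promoter windows hold at least 1 match. A match is a string of letters, not a measured binding site.

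H2-K1 stood at 2027, 1998 and 2354 CPM in EA 5, 7 and 8, against 1852, 1269.8 and 1598 CPM in MPX 2, 5 and 7, and 2131, 3275 and 1763 CPM in CPX 4, 6 and 8. Every EA library lay above every MPX library, and the top value of the series was CPX 6. The log2 difference EA minus MPX was 0.43 (SE 0.35, edgeR adjusted p = 0.775), a fold of 1.35, and did not pass. MPX minus CPX was -0.60 (SE 0.35, edgeR adjusted p = 0.442), but -0.31 without CPX 6. EA minus CPX was -0.17 (SE 0.35), and 0.12 without CPX 6. Without CPX 4 as well, MPX minus CPX was -0.14 and EA minus CPX 0.26.

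H2-D1 was flatter. It stood at 2605, 2528 and 2802 CPM in EA 5, 7 and 8, against 2820.5, 2061 and 2355 CPM in MPX 2, 5 and 7, and 3461, 2697 and 2530.3 CPM in CPX 4, 6 and 8. The 3 groups overlapped, and the library rich in leukocyte transcripts, CPX 6, was not the highest for H2-D1. Its log2 differences were 0.13 for EA minus MPX, -0.13 for EA minus CPX and -0.26 for MPX minus CPX (SE 0.32 each), with edgeR adjusted p of at least 0.686. CPX 4 was the highest library after TMM scaling. As a share of listed counts it (36552 of 14027981) lay below EA 8 (38836 of 12652003). Without CPX 4, MPX minus CPX was -0.082 and EA minus CPX 0.020. Without CPX 6 as well they were -0.046 and 0.055, and without MPX 5 the EA minus MPX value was 0.004. Of the 50-base words in H2-K1 transcripts 9.63% also occur in another gene of GENCODE M21, and of those in H2-D1 transcripts 12.8%, most often with H2-Q10 for H2-K1 (5.18%) and with H2-Q1 for H2-D1 (5.87%), both class I genes. Reads there could have been split or dropped by the counting, so both levels are uncertain to that extent.

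B2m encodes the light chain shared by all class I heavy chains (ENSMUSG00000060802, mm10 chromosome 2, 122147686 to 122153083, plus strand, protein coding). Its promoter window is shown because it holds both an interferon-type and a kappa B match, marked in capitals in that order.
B2m, chr2:122147437-122147686, plus strand: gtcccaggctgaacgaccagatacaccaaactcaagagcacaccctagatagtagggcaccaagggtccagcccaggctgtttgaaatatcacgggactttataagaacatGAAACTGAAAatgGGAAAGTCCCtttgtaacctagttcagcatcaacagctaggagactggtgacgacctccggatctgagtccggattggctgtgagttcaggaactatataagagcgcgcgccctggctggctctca
The interferon-stimulated response element was searched on both strands as GAAA, any pair of bases, and GAAA again, which 3.44% of the promoter windows hold. In CPM after TMM scaling, B2m was the only member whose groups separated CPX from both other groups. It stood at 2114, 1986 and 2391 CPM in EA 5, 7 and 8, against 2281, 1863 and 2331 CPM in MPX 2, 5 and 7, and 3296, 3574 and 2939 CPM in CPX 4, 6 and 8. All 3 CPX libraries lay above all EA and MPX libraries on that scale. They include CPX 4, with the lowest leukocyte sum, and CPX 6, with the highest. The place of CPX 4 rests on its TMM factor of 0.753. As a share of listed counts, CPX 4 (34807 of 14027981) lay below EA 8 (33140 of 12652003).

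B2m averaged 2164 ± 207 CPM in EA, against 3269.8 ± 318 CPM in CPX (SD, n = 3 each), which is -0.60 on the log2 scale (SE 0.30, edgeR adjusted p = 0.997). MPX minus CPX was also -0.60 (SE 0.30, edgeR adjusted p = 0.410), with 2158 ± 257 CPM in MPX. These comparisons share the CPX libraries. Separation in this direction was found for 5.08% of all genes in EA minus CPX and for 7.71% in MPX minus CPX. Neither difference passed in edgeR. With no scaling factor, EA minus CPX was -0.40 and MPX minus CPX -0.50. DESeq2 called 201 of all 3958 genes in MPX minus CPX. It put B2m just past the threshold there (DESeq2 adjusted p = 0.04996, over all alternatives 0.04996 to 0.797). Without CPX 4 and CPX 6, the differences were -0.45 for EA minus CPX and -0.42 for MPX minus CPX. Between EA and MPX the B2m difference was 0.0037, and its sign changed with the setting. It was -0.028 without CPX 4, -0.005 without CPX 6 and -0.028 without both.

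**Figure D1:**
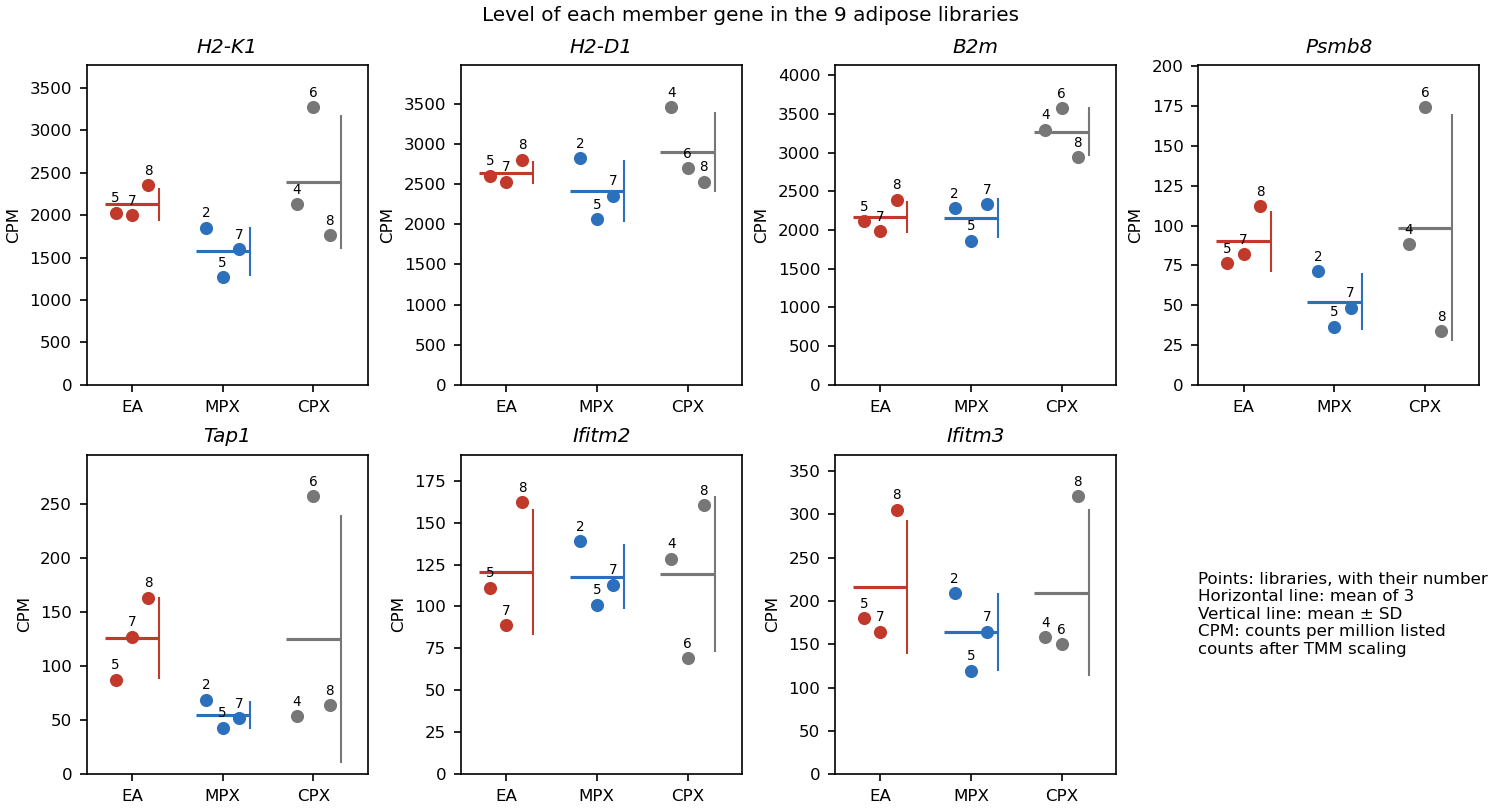
Level of each member in CPM on a linear axis from 0, by group, in EA, MPX and CPX. Points are libraries with their number, horizontal lines are means of 3 and vertical lines the mean ± SD. After TMM scaling, B2m in the 3 CPX libraries (2939 to 3574 CPM) sits above every other library. For Tap1 only CPX 6 (257 CPM) stands above the EA range.

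Psmb8 and Tap1 supply the peptides. Psmb8 encodes the immunoproteasome subunit beta 5i, which takes the place of the constitutive Psmb5 under interferon gamma and in lymphoid cells, and Tap1 encodes 1 of the 2 chains of the peptide transporter. They are neighbours in the MHC, with 495 bases between Tap1 (ENSMUSG00000037321, mm10 chromosome 17, 34187553 to 34197225) and Psmb8 (ENSMUSG00000024338, 34197721 to 34201454), both on the plus strand and protein coding. Neither RefSeq window had a match to the 2 motifs described above, and that of Psmb8 lies inside the gene span given, so the sequence before that span was not searched.

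Tap1 had the largest difference of the members in EA minus MPX. It stood at 87.6, 127 and 163 CPM in EA 5, 7 and 8, against 68.7, 43.0 and 51.9 CPM in MPX 2, 5 and 7, and 53.8, 257 and 63.6 CPM in CPX 4, 6 and 8. All EA libraries lay above all MPX libraries and above CPX 4 and CPX 8. The log2 difference EA minus MPX was 1.21 (SE 0.59, edgeR adjusted p = 0.775), a fold of 2.31 that did not pass over all genes. The edgeR adjusted p was 0.0658 with only EA and MPX fitted and 0.102 without CPX 6, so neither passed. Over all alternatives it ran from 0.0346, with a replicate block that no label gives, to 0.998. MPX minus CPX was -1.19 (SE 0.59, edgeR adjusted p = 0.404), yet -0.11 without CPX 6. Without CPX 4 as well it was -0.20. EA minus CPX was 0.013, and 1.09 without CPX 6 (edgeR adjusted p = 0.128, over all alternatives 0.128 to 0.9999). Without CPX 4 it was -0.34, and without both libraries 0.97.

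Psmb8 also separated EA from MPX, by a smaller margin. It stood at 76.4, 81.9 and 112 CPM in EA 5, 7 and 8, against 71.5, 36.5 and 48.6 CPM in MPX 2, 5 and 7, and 88.3, 174.5 and 33.7 CPM in CPX 4, 6 and 8. The EA libraries again lay above the MPX libraries, although EA 5 and MPX 2 were close, and CPX held both the highest and the lowest value of the series. EA minus MPX was 0.79 (SE 0.53, edgeR adjusted p = 0.775) and MPX minus CPX -0.92 (SE 0.53, edgeR adjusted p = 0.438). Without CPX 6, MPX minus CPX was -0.22, and without CPX 4 as well it was 0.65. EA minus CPX was -0.13, then 0.55 and 1.41 with the same libraries left out. Without CPX 4 alone it was -0.20. With 9615 counts in all, Psmb8 lay not far above the lowest total of the table, so it had the fewest counts of the 7 genes (428 in CPX 8).

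Ifitm2 and Ifitm3 encode small interferon-induced membrane proteins. They lie on the minus strand of mm10 chromosome 7, Ifitm2 (ENSMUSG00000060591) from 140954837 to 140955987 and Ifitm3 (ENSMUSG00000025492) from 141009586 to 141010770, with 53598 bases between them, and both are protein coding. The stretches around their RefSeq starts are shown because both hold the same response element match, and Ifitm3 holds another one. Capitals mark the matches to the interferon-stimulated response element.
Ifitm2, chr7:140955983-140956012, minus strand: aacagGAAAAGGAAAttgctagagaaaggg
Ifitm3, chr7:141010716-141010745, minus strand: cagGAAAAGGAAActtctgaGAAACCGAAA
In Ifitm2 the match ends 37 bases before the RefSeq start, and in Ifitm3 the matches lie from base 3 to base 29 after it.

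Ifitm3 stood at 180.2, 164 and 306 CPM in EA 5, 7 and 8, against 209, 119.7 and 164 CPM in MPX 2, 5 and 7, and 158, 150.05 and 321 CPM in CPX 4, 6 and 8. The groups overlapped throughout: the highest libraries were CPX 8 and EA 8, and CPX 6 was among the low ones. Ifitm2 stood at 111, 88.8 and 162 CPM in EA 5, 7 and 8, against 139, 101 and 113 CPM in MPX 2, 5 and 7, and 128.5, 69.2 and 161 CPM in CPX 4, 6 and 8. For Ifitm2, CPX 6 was the lowest library of the series, the reverse of its place for H2-K1, B2m, Psmb8 and Tap1. In the fit to all libraries, no log2 difference of Ifitm2 exceeded 0.037 in size, and those of Ifitm3 were 0.40 for EA minus MPX, 0.047 for EA minus CPX and -0.35 for MPX minus CPX (SE 0.39 each, edgeR adjusted p of at least 0.667). The Ifitm3 value for EA minus MPX was 0.067 without EA 8 and 0.19 without MPX 5, and for MPX minus CPX it was 0.12 without CPX 8. For EA minus MPX, Ifitm2 was 0.005 without CPX 4, 0.027 without CPX 6 and 0.005 without both. For EA minus CPX, Ifitm3 was -0.12 without CPX 4 and -0.16 without CPX 6, and Ifitm2 was 0.069 and -0.27. For MPX minus CPX, Ifitm3 was -0.49 without CPX 4 and -0.54 without CPX 6, and Ifitm2 was 0.064 and -0.30. Without both libraries, Ifitm3 was -0.58 for EA minus CPX and -0.94 for MPX minus CPX. Ifitm2 was then -0.42 for EA minus CPX and -0.42 for MPX minus CPX. Of the 50-base words of Ifitm2 transcripts, 48.5% also occur in other annotated genes, and of those of Ifitm3 10%, so the Ifitm2 level is the least certain of the 7.

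Levels can be compared between genes only per length. As CPM per kilobase of gene length, averaged over the 9 libraries, the order was B2m (2942.5), H2-D1 (1028), H2-K1 (778), Ifitm3 (291), Ifitm2 (182), Psmb8 (29.4) and Tap1 (18.6). On this scale B2m ranked 14th and H2-D1 32nd of 3957 genes with a length, and Tap1 ranked 2582nd. Neighbours in this order kept their places in all 9 libraries except H2-D1 and H2-K1, which changed places in CPX 6 (8 of 9 libraries in that order).

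Ratios of members within a library do not depend on scaling between libraries. The ratio of H2-K1 to H2-D1 in counts per kilobase was 0.770, 0.782 and 0.831 in EA 5, 7 and 8, against 0.649, 0.609 and 0.671 in MPX 2, 5 and 7, and 0.609, 1.20 and 0.689 in CPX 4, 6 and 8. EA and MPX did not overlap, with means of 0.794 ± 0.033 in EA and 0.643 ± 0.031 in MPX, a log2 difference of 0.30. The exact two-sided permutation p was 0.1, the smallest that 3 libraries against 3 allow, so no ratio could pass. Ifitm3 over Ifitm2 averaged 1.73 ± 0.14 in EA and 1.33 ± 0.17 in MPX, also without overlap (exact permutation p = 0.1, n = 3 each). Sequence shared with other genes makes these ratios, and those with heavy chains below, uncertain too. The shared 50-base words were 48.5% for Ifitm2, 10% for Ifitm3, 9.63% for H2-K1 and 12.8% for H2-D1. Their part in the ratios was not tested.

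B2m relative to both heavy chains together was lower in EA than in each other group. The ratio was 1.38, 1.32 and 1.40 in EA 5, 7 and 8, against 1.47, 1.68 and 1.78 in MPX 2, 5 and 7, and 1.77, 1.81 and 2.06 in CPX 4, 6 and 8. No EA library reached the lowest MPX or CPX library. The log2 difference was -0.26 for EA minus MPX and -0.46 for EA minus CPX (exact permutation p = 0.1 each, n = 3 per group), and -0.20 for MPX minus CPX, whose groups overlapped (exact permutation p = 0.2). Psmb8 over Tap1 overlapped in every comparison. Of the 12 ratio comparisons made, none had an exact permutation p below 0.1 before adjustment.

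**Figure D2:**
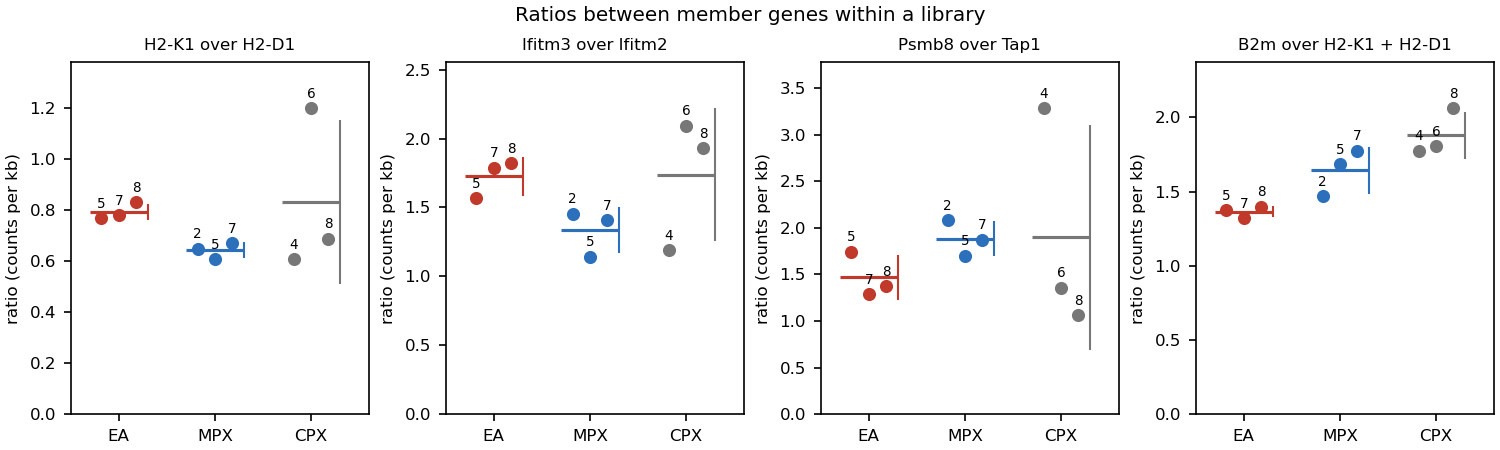
Ratios between members in counts per kilobase, per library, on linear axes from 0, in EA, MPX and CPX. Points are libraries with their number, with the mean of 3 and mean ± SD as lines. H2-K1 over H2-D1 lies between 0.770 and 0.831 in EA and between 0.609 and 0.671 in MPX, and B2m over both heavy chains is lowest in the 3 EA libraries.

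Taken as a set in EA minus MPX, all 7 members had positive log2 differences (median 0.40), against 51.4% of all 3958 genes (median 0.012). The members were chosen with earlier results of these data known, so such counts describe the set and test nothing. Every EA library lay above every MPX library for 3 of the 7, H2-K1, Psmb8 and Tap1, against 21.5% of all genes, and 0 of 7 lay the other way, against 19.0%. By edgeR 0 members passed at an adjusted p under 0.05, as did 0% of all genes, and 0 members had an unadjusted p under 0.05, against 2.10% of all genes on the higher side and 3.01% on the lower. DESeq2 called 49 genes and limma voom 0, with 0 members among them. B2m and Ifitm2 made up the bottom of the set and their signs were not stable: 5 to 7 members were positive over the alternatives. The members' median was 0.089 without EA 8 and 0.19 without MPX 5, against 0.011 and -0.019 over all genes.

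The other genes of the pathway, in lists also chosen with earlier results known, were described in the same way between EA and MPX. Of 13 listed loading and regulation genes, Psmb8, Tap1 and B2m included, 13 had positive differences (median 0.44), and 8 lay wholly above MPX, where 21.5% of all genes did. Erap1, the peptidase that trims peptides in the endoplasmic reticulum, averaged 113 ± 7.08 CPM in EA, against 83.2 ± 12.3 in MPX. Canx, the chaperone calnexin that holds new heavy chains, averaged 408 ± 100.4 CPM in EA, against 285 ± 33.0 in MPX. Nlrc5, the transactivator of class I genes, averaged 114.5 ± 31.1 CPM in EA, against 63.7 ± 13.9 in MPX. None of them passed, the smallest edgeR adjusted p of the list being 0.775.

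Of 11 listed class I and class I-like heavy chains, 9 had positive differences in EA minus MPX and 2 negative ones. Wholly above MPX lay 4 of them and wholly below 2, where all genes had 21.5% and 19.0%. H2-Q7, a non-classical chain, averaged 155.5 ± 45.1 CPM in EA, against 51.2 ± 16.9 in MPX (log2 difference 1.602). Hfe, which takes part in iron sensing and presents no peptide, averaged 77.8 ± 13.7 CPM in EA, against 208 ± 85.2 in MPX (-1.42), and Cd1d1, which presents lipids, 206 ± 95.9 CPM in EA, against 492 ± 144.7 in MPX (-1.26). Of 36 listed interferon pathway and induced genes, 31 had positive differences (median 0.45) and 5 negative ones, where 51.4% of all genes were positive. Wholly above MPX lay 15 of the 36, and wholly below 1, Ifi27, an interferon-induced gene named here after its values were seen (297.5 ± 77.2 CPM in EA, against 454 ± 85.0 in MPX). Irgm2, an interferon-inducible GTPase, averaged 90.9 ± 15.7 CPM in EA, against 52.9 ± 12.98 in MPX, and Ifi203, an interferon-inducible DNA sensor family gene, 146 ± 69.4 CPM in EA, against 50.3 ± 17.1 in MPX. The lists share genes with each other and with the members, and 0 genes of any list passed. The 13 constitutive proteasome core genes went the other way, 12 of 13 negative (median -0.11).

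In EA minus CPX, 3 of 7 members had positive differences (median -0.13), against 39.0% of all genes (median -0.093). The members' median thus lay near that of all genes. No member passed (0% of all genes), and 0 had an unadjusted p under 0.05, against 0.960% of all genes on the higher and 2.0% on the lower side. After TMM scaling, B2m alone had groups apart, with CPX the higher (5.08% of all genes, and 2.10% the other way). Of the loading genes 5 of 13 were positive and of the interferon genes 18 of 36. Of the heavy chains 1 of 11 was positive, and 0 of 13 constitutive proteasome genes. Without any scaling factor 6 members were positive, while the median of all genes moved to 0.10 and that of the members to 0.096.

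In MPX minus CPX, all 7 members had negative differences (median -0.60), against 40.7% of all genes with positive ones (median -0.11). Only B2m had groups apart, with CPX the higher (7.71% of all genes, and 8.46% the other way). No member passed (0% of all genes), and 0 had an unadjusted p under 0.05, against 4.98% of all genes on the higher and 8.21% on the lower side. Of 13 loading genes 12 were negative and of 36 interferon genes 32. Erap1 averaged 83.2 ± 12.3 CPM in MPX, against 146 ± 30.6 in CPX (log2 difference -0.81, edgeR adjusted p = 0.362), with no overlap. H2-Q10, a secreted class I chain known from liver, averaged 42.2 ± 30.6 CPM in MPX, against 267 ± 285 in CPX, with a spread in CPX as large as its mean: CPX 4 had 592 CPM, CPX 6 had 58.4 and CPX 8 had 152. Without CPX 6 the members' median was -0.31, and with CPX 4 also left out it was -0.20, against a median of 0.037 over all genes.

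**Figure D3:**
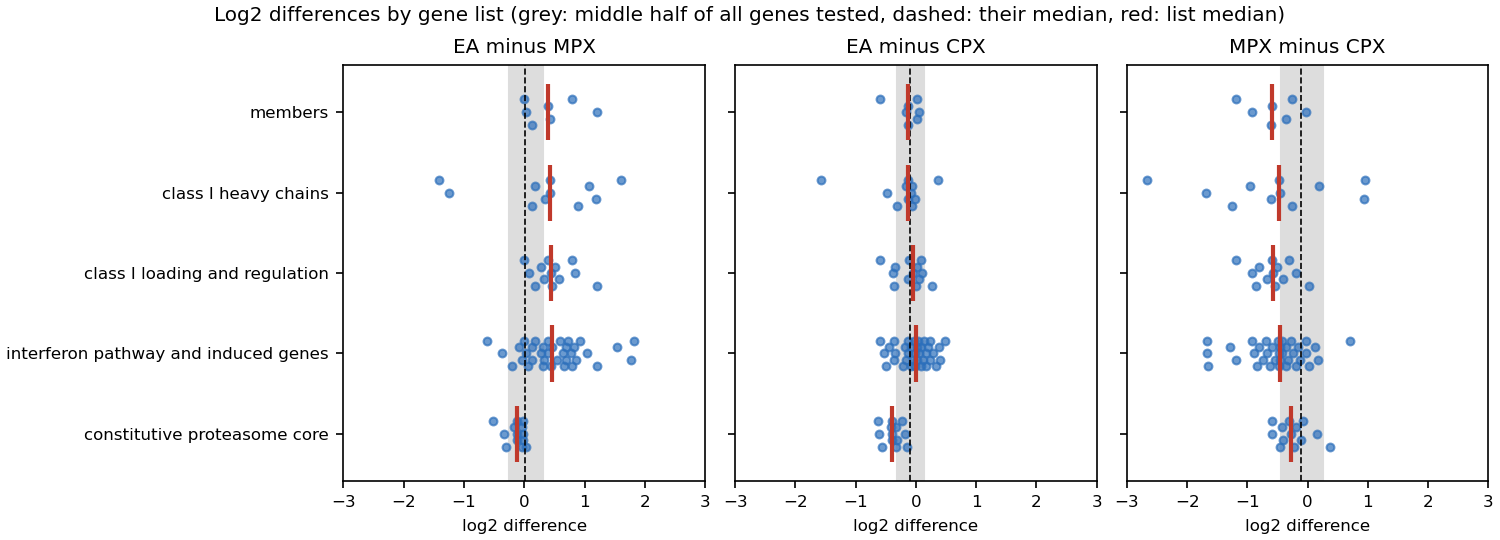
Log2 differences of the members and of 4 gene lists in each comparison. Blue points are genes, red bars list medians, the grey band the interquartile range of all 3958 genes and the dashed line their median. In EA minus MPX the members' median is 0.40, in EA minus CPX -0.13 and in MPX minus CPX -0.60, where all genes have 0.012, -0.093 and -0.11.

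The members differed in how closely they followed the general leukocyte genes, such as Ptprc, which encodes CD45. In bulk tissue more leukocytes and more RNA per leukocyte cannot be told apart. The leukocyte list mean, as a log2 deviation from its mean over the libraries, was 0.52, 0.90 and 1.80 in EA 5, 7 and 8, against -0.54, -1.48 and -1.41 in MPX 2, 5 and 7, and -2.04, 3.02 and -0.79 in CPX 4, 6 and 8. All 14 leukocyte genes had positive differences in EA minus MPX (median 2.51), so this list moved with the groups, and its part in the differences of the members was not tested. In EA minus CPX 2 of the 14 were positive (median -0.49) and in MPX minus CPX 0 of 14 (median -2.78). Of 16 adipocyte genes, 14 had negative differences in EA minus MPX (median -0.49). All 15 macrophage genes (median 0.66) and all 10 B cell genes (median 6.34) had positive differences in EA minus MPX too. Their sums were 3880.5 to 9010 CPM in EA against 1803 to 5253 in MPX for macrophages, and 1392 to 4184.5 CPM in EA against 473.5 to 1227 in MPX for B cells. Endothelial genes went the other way: 11 of 12 were negative in EA minus MPX (median -0.33), 10 of 12 positive in EA minus CPX (median 0.31) and 12 of 12 positive in MPX minus CPX (median 0.59), with sums of 1858 to 2477 CPM in EA, 2413 to 3423 in MPX and 1465.5 to 2504 in CPX. T cell, NK cell and dendritic cell markers were not among the listed genes and were not analysed here.

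Tap1 followed the leukocyte list across the 9 libraries, with Pearson's r of 0.978 (exact permutation p = 2.76e-05, adjusted p = 0.000772 over 28 relations) and Spearman's rho of 0.950 (exact permutation p = 0.000353, adjusted p = 0.00988). Without EA 8 and CPX 6, the libraries farthest from the median, r was 0.926. H2-K1 had r of 0.789 (exact permutation p = 0.00913, adjusted p = 0.0511) and rho of 0.633 (exact permutation p = 0.0760). Psmb8 had r of 0.755 (exact permutation p = 0.0197, adjusted p = 0.0787) and rho of 0.600 (exact permutation p = 0.0968). Without EA 8 and CPX 6 their r was 0.389 and 0.346, and without CPX 6 alone 0.590 and 0.570. Leaving out the farthest libraries narrows the range, so a lower r does not by itself show that a relation rests on them. H2-D1 (r = 0.052), B2m (0.195), Ifitm3 (0.176) and Ifitm2 (-0.41) had exact permutation p of at least 0.273. Without EA 8 and CPX 6, B2m had r of -0.513, H2-D1 -0.153, Ifitm3 0.193 and Ifitm2 -0.379, and without CPX 6 alone Ifitm2 had 0.098. Groups of 3 are too few for a relation within a group, and the libraries differ in groups as well as in leukocyte level, so the values are descriptions of these 9 libraries.

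**Figure D4:**
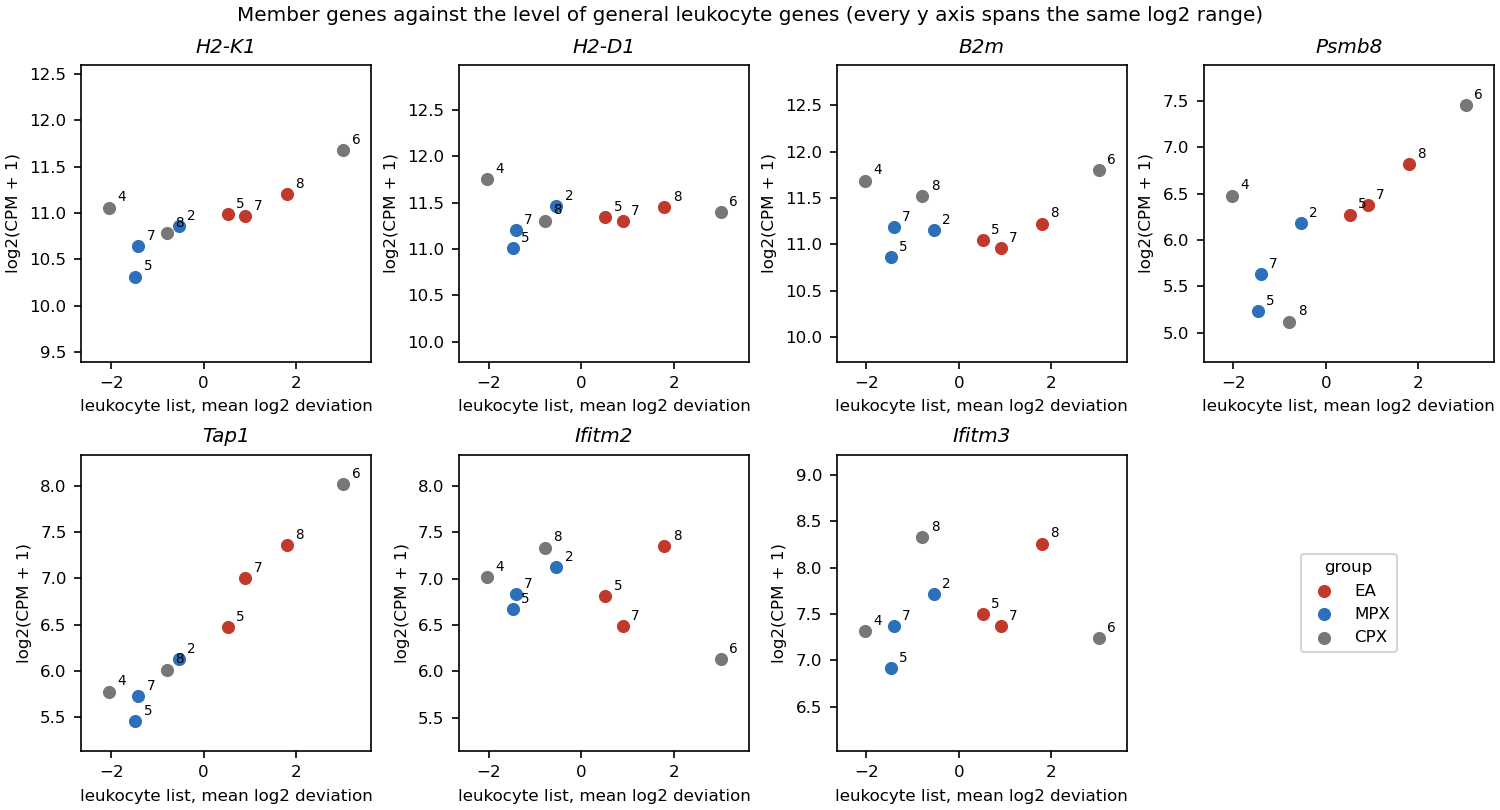
Each member, as log2(CPM + 1), against the mean log2 deviation of 14 general leukocyte genes, per library, with library numbers; every vertical axis spans the same range. Tap1 climbs along the whole axis (r = 0.978), while H2-D1 (0.052) and B2m (0.195) do not, and Ifitm2 is lowest in CPX 6.

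Among the members themselves, H2-K1 and Psmb8 varied together (r = 0.916, exact permutation p = 0.000535, adjusted p = 0.00748; rho = 0.933, exact permutation p = 0.000750, adjusted p = 0.0105), with r of 0.849 without MPX 5 and CPX 6. H2-K1 and Tap1 had r of 0.875 (exact permutation p = 0.000942, adjusted p = 0.0088; rho = 0.817, exact permutation p = 0.0108, adjusted p = 0.0968), and 0.687 without the same libraries. Psmb8 and Tap1, the chromosomal neighbours, had r of 0.836 (exact permutation p = 0.00465, adjusted p = 0.0325; rho = 0.750, exact permutation p = 0.0255, adjusted p = 0.143), and 0.781 without CPX 6 and CPX 8. The heavy chains, with promoter windows 87.9% identical where aligned, had r of 0.590 with each other (exact permutation p = 0.0868, adjusted p = 0.243). Their rho was 0.700 (exact permutation p = 0.0433, adjusted p = 0.202). The r of the heavy chains was 0.602 without MPX 5 and CPX 6, and 0.790 without CPX 6 alone. Ifitm2 and Ifitm3 had r of 0.767 (exact permutation p = 0.0161, adjusted p = 0.0752; rho = 0.800, exact permutation p = 0.0138, adjusted p = 0.0968), and over all 9 libraries neither had an r above 0.267 with any of the other 5 members. For B2m and Psmb8 that low value rests on few libraries. Without CPX 4 and CPX 6, B2m had r of 0.826 with Ifitm2 and 0.868 with Ifitm3. Without CPX 6 and CPX 8, Psmb8 had 0.522 with Ifitm2 and 0.769 with Ifitm3. The same step, leaving out the 2 libraries farthest from a gene's median, gave lower values for H2-K1 (0.171 and 0.172), H2-D1 (0.184 and 0.301) and Tap1 (-0.343 and 0.220). Without CPX 6 alone, r with Ifitm3 was 0.534 for H2-K1, 0.285 for H2-D1 and 0.512 for Tap1. The other relations had an adjusted p of at least 0.153. The permutations ran over all 9 libraries, whose groups differ, so these values too are descriptions of these 9 libraries.

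The pattern of the whole set, the mean of the members' standardised log2 levels, was highest in EA 8 (0.81) and CPX 6 (0.69) and lowest in MPX 5 (-1.27). Of 3951 other genes, the 5 most like it by Pearson correlation over the 9 libraries were Tmem176b (0.963), Asah1 (0.961), C3 (0.952), Canx (0.940) and Ccl8 (0.934). Asah1 encodes acid ceramidase, C3 the central complement protein and Ccl8 a chemokine. C3 stood at 1843, 1579 and 7155 CPM in EA 5, 7 and 8, against 1712, 330.4 and 1168 CPM in MPX 2, 5 and 7, and 2474, 4621 and 4251 CPM in CPX 4, 6 and 8. Taken singly, Tap1 was most like Slfn2 (0.990), a Schlafen family gene of leukocytes, and Psmb8 most like Sat1 (0.980). Each was the best of 3951 genes over 9 libraries, so a high value is the outcome of the choice.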

How the data were processed

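The authors deposited raw counts for each gene in each library, as the file headers and whole values show. The submitters' processing notes name HISAT2 2.0.5 and the build mm10. How reads were counted, with which annotation and strand setting, is not given in the sources used here. The table used here lists 3958 genes and ends inside its last row. Columns were matched to libraries by title, and 11 damaged gene names were restored from gene IDs.

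All 9 libraries entered 1 edgeR 4.0.16 fit in R 4.3.3 (mean per group, TMM, filterByExpr, which removed 0 genes, robust quasi-likelihood test, Benjamini-Hochberg over all genes). The SE is the log2 difference over the square root of F. Alternatives used DESeq2 1.42.0, limma 3.58.1, other scalings, subsets and a block. No library pair in a group held near-identical counts (chi-square per degree of freedom at least 71.5). Of the methods, only the edgeR fit was tested on simulated counts, for EA minus MPX.

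Named genes were all members, up to 4 genes of smallest p per list, and the most correlated genes; Ifi27 and Psmb10 were named after their values were seen. The members and lists were chosen with earlier results of these data known. Promoters are from RefSeq (GRCm38.p6) and matched 7 of 7 members. A further motif searched is not reported here.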

Additional observations from a re-analysis of the deposited data

How the results depend on the processing

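The count of genes past an adjusted p of 0.05 depended on the tool and on the CPX libraries. EA minus MPX gave 49 genes with DESeq2, 84 with only the groups compared, 80 with CPX 4 and CPX 6 left out together (chosen after seeing the data) and 0 to 23 when single libraries were left out, the 23 without CPX 6. EA minus CPX gave 5 with DESeq2 and 0 to 12 (12 without CPX 6), and MPX minus CPX 201 with DESeq2 and 0 to 168 (168 without CPX 8). With numbers 5 and 7 of EA and MPX as a replicate block the count was 160, Tap1 passed (1.126, edgeR adjusted p = 0.0346, over all alternatives 0.0346 to 0.998), B2m was -0.059 and Ifitm2 -0.139. The same numbers had correlated deviations of 0.028 and 0.119, which with 2 pairs does not show a pairing, and no label says that a number marks a shared animal or day. DESeq2 used all 9 libraries and the other settings named here used fewer, and the cause of these changes was not tested.

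Of 406 alternative values of the 21 member differences, 358 kept direction and side of the threshold, 46 reversed and 2 passed (Tap1 with the block, B2m in DESeq2 for MPX minus CPX). In EA minus MPX, B2m was -0.006 with size factors and DESeq2, -0.029 without mitochondrial totals, -0.028 with only the groups compared or without CPX 4 and 6, and -0.12 to 0.062 without single libraries, as Ifitm2 was -0.235 to 0.216. In EA minus CPX, Psmb8 was 0.004 with upper quartile scaling, 0.022 with none, 0.138 in limma voom, 1.409 without CPX 4 and 6, and -0.542 to 0.553 without single libraries. With no scaling H2-K1 was 0.003 and H2-D1 0.096; without CPX 4 and 6 they were 0.262 and 0.055, Ifitm2 -0.42 and Ifitm3 -0.576. Single libraries left out gave -0.345 to 0.116 for H2-K1, -0.223 to 0.02 for H2-D1, -0.342 to 1.092 for Tap1, -0.271 to 0.282 for Ifitm2 and -0.285 to 0.489 for Ifitm3. Positive members there were 6 with no scaling and 0 to 3 without single libraries (0 without EA 8). In MPX minus CPX, Ifitm2 was 0.061 with upper quartile, 0.11 with no scaling, 0.002 without mitochondrial totals, 0.048 in limma voom and -0.298 to 0.277 without single libraries, Ifitm3 -0.544 to 0.123, and Psmb8 0.653 without CPX 4 and 6. Positive members were 1 in each of these settings and 0 to 2 without single libraries (2 without CPX 8).

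Among ratios in EA minus CPX, the median in place of the mean gave 0.182 for H2-K1 over H2-D1, -0.112 for Ifitm3 over Ifitm2 and 0.017 for Psmb8 over Tap1, and single libraries left out -0.197 to 0.293, -0.225 to 0.183 and -0.536 to 0.279. Psmb8 over Tap1 was -0.169 to 0.647 in MPX minus CPX. The EA minus MPX ratios kept their direction in all alternatives run.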

Other observations

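Immunoproteasome subunits were also set against the constitutive subunits they replace, a comparison, Psmb10 included, chosen after the values were seen and given without a test. The ratio of Psmb8 to Psmb5 in CPM was 0.933, 1.29 and 1.56 in EA 5, 7 and 8, against 0.761, 0.432 and 0.514 in MPX 2, 5 and 7, and 0.740, 2.58 and 0.578 in CPX 4, 6 and 8. The ratio of Psmb10, another immunoproteasome subunit, to its counterpart Psmb7 was 0.848, 1.28 and 1.66 in EA 5, 7 and 8, against 0.815, 0.631 and 0.662 in MPX 2, 5 and 7, and 0.783, 1.84 and 0.703 in CPX 4, 6 and 8. In both pairs every EA library lay above every MPX library, and CPX 6 was the highest library. The leukocyte list ordered the EA libraries and CPX 6 in the same way, and its part in these ratios was not tested.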
